A study of Mus musculus with 20 samples.

Results

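The mouse carboxylesterase genes Ces1c, Ces1d, Ces1e, Ces1f, Ces1g, Ces2a, Ces2c, Ces2e, Ces3a and Ces3b were followed across all libraries of a liver RNA-sequencing study. They were chosen by symbol and are 10 of the 20 carboxylesterase symbols, and of 46095 gene symbols, in the deposited counts. The study compared wild-type (WT) mice with mice that lack Pck1 in the liver (Pck1-cKO in the labels, KO here), to ask how the liver transcriptome depends on Pck1 in steatohepatitis brought on by diet. Pck1 encodes the cytosolic phosphoenolpyruvate carboxykinase of gluconeogenesis. WT chow and KO chow mice were fed a chow diet for 24 weeks, and WT NASH and KO NASH mice were given the NASH diet, named for non-alcoholic steatohepatitis, for the same time. Each of the 4 groups held 5 mice, 31 to 33 weeks old, and each mouse gave 1 library. The labels do not name the strain, the sex or the driver of the deletion. The p-values below measure the spread between these mice.

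Carboxylesterases cleave ester, thioester and amide bonds. In hepatocytes most of them sit in the lumen of the endoplasmic reticulum, held there by a tail that the KDEL receptors recognise, and there they clear drugs and other foreign esters and mobilise stored lipid. Some members act on triacylglycerol, and so link the family to the lipid droplet and to the assembly of very-low-density lipoprotein.

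All 10 members lie on chromosome 8 of the GRCm38 build in 2 groups of neighbours (GENCODE M21). The 5 Ces1 members lie at chr8:93099015-93337308 on the minus strand. The 3 Ces2 and 2 Ces3 members lie at chr8:104734003-105093929 on the plus strand, 11396.7 kb away. The coding sequences of the 5 Ces1 members were 75.6% to 81.8% identical to each other and those of the 3 Ces2 members 83.0% to 84.4%. Between subfamilies identity was 64.3% to 68.4%. Ces3a and Ces3b stood apart from every other pair at 95.3%: 81 of 1716 coding bases differed, and the longest stretch without a difference was 194 bases. That closeness bears on the values below, because a read that lies within an identical stretch cannot be placed, and 30.9% of the 50-base words of the Ces3a transcript also occurred in Ces3b. The 60 coding bases where the pair differs most, at positions 758 to 817 of both coding sequences (GENCODE M21 transcripts), are shown with the 13 differing bases in capitals.
Ces3a coding: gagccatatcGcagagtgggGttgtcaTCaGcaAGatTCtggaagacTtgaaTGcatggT
Ces3b coding: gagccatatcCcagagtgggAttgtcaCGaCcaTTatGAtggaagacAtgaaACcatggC

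Shared words were also frequent in Ces2c (42.2%, chiefly with the pseudogenes Ces2d-ps and Gm8798), Ces2a (22.2%, chiefly with Gm7208) and Ces1c (17.0%, chiefly with Ces1b). In Ces1d, Ces1e, Ces1f, Ces1g and Ces2e they made up 1.28% to 3.36%. Ces3a is overlapped on the opposite strand by the gene model Gm45724, which GENCODE marks as awaiting experimental proof, and use of the strand in counting is not stated in the labels. The values of Ces3a, Ces3b, Ces2c, Ces2a and Ces1c are uncertain to that extent.

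The 250 bases before the start site are shown for Ces1c, Ces2a and Ces3b, because these 3 members differed between genotypes in the test described below (RefSeq, GRCm38.p6; capitals mark a motif match).
Ces1c upstream, chr8:93131284-93131533, minus strand: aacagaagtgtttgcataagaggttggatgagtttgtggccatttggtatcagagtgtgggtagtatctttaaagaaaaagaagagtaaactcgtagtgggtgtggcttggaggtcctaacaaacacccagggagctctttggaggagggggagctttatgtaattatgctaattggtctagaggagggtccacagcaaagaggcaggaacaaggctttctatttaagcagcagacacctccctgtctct
Ces2a upstream, chr8:104733753-104734002, plus strand: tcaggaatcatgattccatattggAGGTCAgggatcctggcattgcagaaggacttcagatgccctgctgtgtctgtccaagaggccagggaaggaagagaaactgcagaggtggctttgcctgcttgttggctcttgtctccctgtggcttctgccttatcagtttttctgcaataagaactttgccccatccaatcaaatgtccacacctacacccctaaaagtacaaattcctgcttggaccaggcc
Ces3b upstream, chr8:105083505-105083754, plus strand: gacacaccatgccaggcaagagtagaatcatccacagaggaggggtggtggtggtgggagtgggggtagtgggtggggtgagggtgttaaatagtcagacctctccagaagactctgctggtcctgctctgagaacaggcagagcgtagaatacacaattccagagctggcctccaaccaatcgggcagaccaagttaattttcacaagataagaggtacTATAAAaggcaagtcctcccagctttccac

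RefSeq start-site windows were matched for 7 of the 10 members (Ces1c, Ces1e, Ces1g, Ces2a, Ces2c, Ces2e and Ces3b). Ces1d, Ces1f and Ces3a were not matched. Each window ran from 250 bases before to 50 after the start and was searched on both strands for 6 motifs. The TATA box TATAAA occurred 30 bases before the start of Ces3b, and on the opposite strand 26 bases before that of Ces1g. It was present in 13.6% of 32851 windows of the same length. A nuclear receptor half-site, AGGTCA, occurred 226 bases before the start of Ces2a and in 16.3% of all windows. The letters of the HNF4A site CAAAGTCCA, the HNF1 site, the antioxidant response element TGACNNNGC and the C/EBP site TTGCGCAA, found in 0.475%, 0.00913%, 12.4% and 0.183% of all windows, were not in the 7 windows. No 2 of the 3 sequences shown share a match.

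The libraries held 9958935 to 20601955 counts, and the 10 members took 0.304% to 0.800% of them. Levels are given as CPM, the counts scaled to a common library size (TMM), and 1 CPM stood for 6.80 to 24.9 reads. Mean Pck1 was 3573 and 2290.1 CPM in the WT groups on chow and NASH diet and 626 and 445 CPM in the KO groups, and no KO library reached a WT library. The 8 hepatocyte markers (Alb, Apoa1, Ttr and others) were present in every group, and none passed the edgeR test in any comparison. Sex, read from Y-linked genes, was not balanced: all 5 WT chow mice and 4 of 5 KO NASH mice (not replicate 2) were male, as were 3 of 5 KO chow mice (not replicates 3 and 5) and 1 of 5 WT NASH mice (replicate 4). A slope on gene length was fitted to each library's deviations from each gene's mean log2 CPM over the 20 libraries. Its sign is thus relative to the average library. The slope was negative in 6 libraries (WT chow replicates 3, 4 and 5, WT NASH replicate 4, KO chow replicates 4 and 5) and positive in 14. In bulk liver, fewer cells of a type and less RNA per cell cannot be told apart.

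Together the 10 genes summed to 7213 ± 1965 CPM (SD, n = 5) in WT livers and to 4530 ± 1363 in KO livers on chow. On the NASH diet the sums were 6234 ± 679 CPM for WT and 3404 ± 1031 for KO livers. KO NASH livers lay between 2421 and 4889 CPM and WT NASH livers between 5588 and 7289 CPM, so these groups did not overlap. Ces1c made up much of this gap, with means of 3455 CPM in WT NASH and 1277 in KO NASH. It was the only member without overlap there. The sums of the Ces2 and of the Ces3 members overlapped between these groups. Of 5 livers, 4 were female in WT NASH and 4 were male in KO NASH. KO chow livers, at 2516 to 5961 CPM, overlapped WT chow livers, at 5693 to 9847 CPM. These totals are a description and were not tested.

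**Figure D1:**
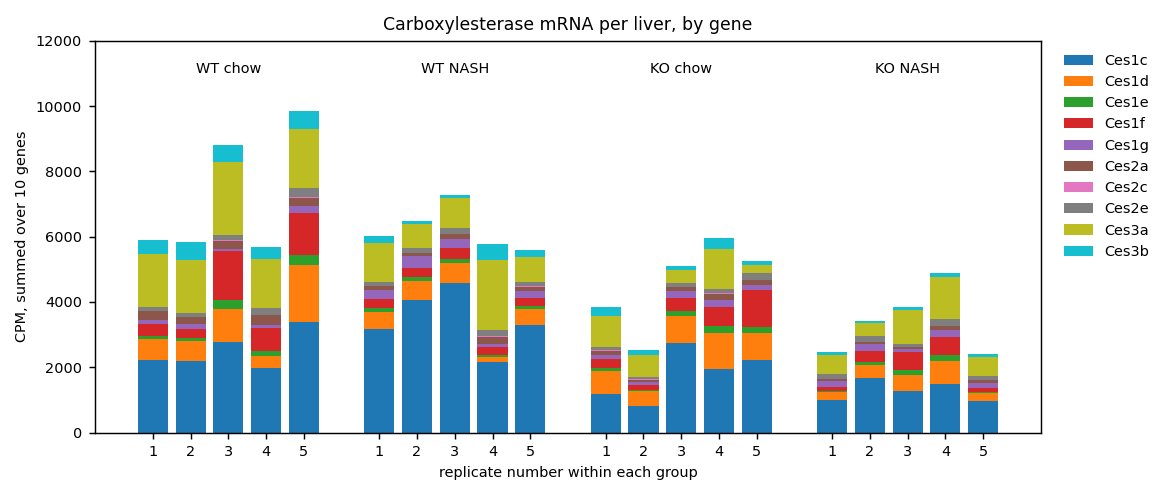
Summed CPM of the 10 carboxylesterase genes in each of the 20 livers, with the colour of each bar segment giving the gene and the x axis the replicate number within each group. Ces1c is the largest segment of every bar, and the KO NASH bars (2421 to 4889 CPM) all stand below the WT NASH bars (5588 to 7289 CPM). Ces1c is also the only member whose own values do not overlap between these 2 groups.

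Per kilobase of transcript, the mean level in WT chow was highest for Ces1c, at 1373 CPM per kb. Ces3a followed at 862, Ces1d at 439, Ces1f at 429.6 and Ces3b at 198 CPM per kb, and each of these neighbours overlapped the next in range. Ces2a (129.8), Ces1e (84.6), Ces2e (66.8) and Ces1g (55.4 CPM per kb) formed a lower set that did not reach Ces3b, and Ces2c was lowest at 7.48 CPM per kb, below all of them. Ces1c was also first in the other 3 groups and Ces2c last. In WT NASH Ces1c stood at 1890.2 CPM per kb and no library of it overlapped those of Ces3a, which came next at 559.6.

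The share of the family's CPM taken by Ces1c was highest in the female libraries of each group that held both sexes, a description without a test. The share was 31.4% to 37.8% in WT chow, where all livers were male. In KO chow the 2 female livers had 54.1% and 42.3%, the highest of a group that began at 30.7%, and in KO NASH the 1 female liver had 48.5%, the highest of a group that began at 30.2%. In WT NASH it was 52.8%, 62.5%, 63.0% and 58.9% in the 4 female libraries and 37.3% in the male library, replicate 4. That male library lay within the range of the all-male WT chow group.

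**Figure D2:**
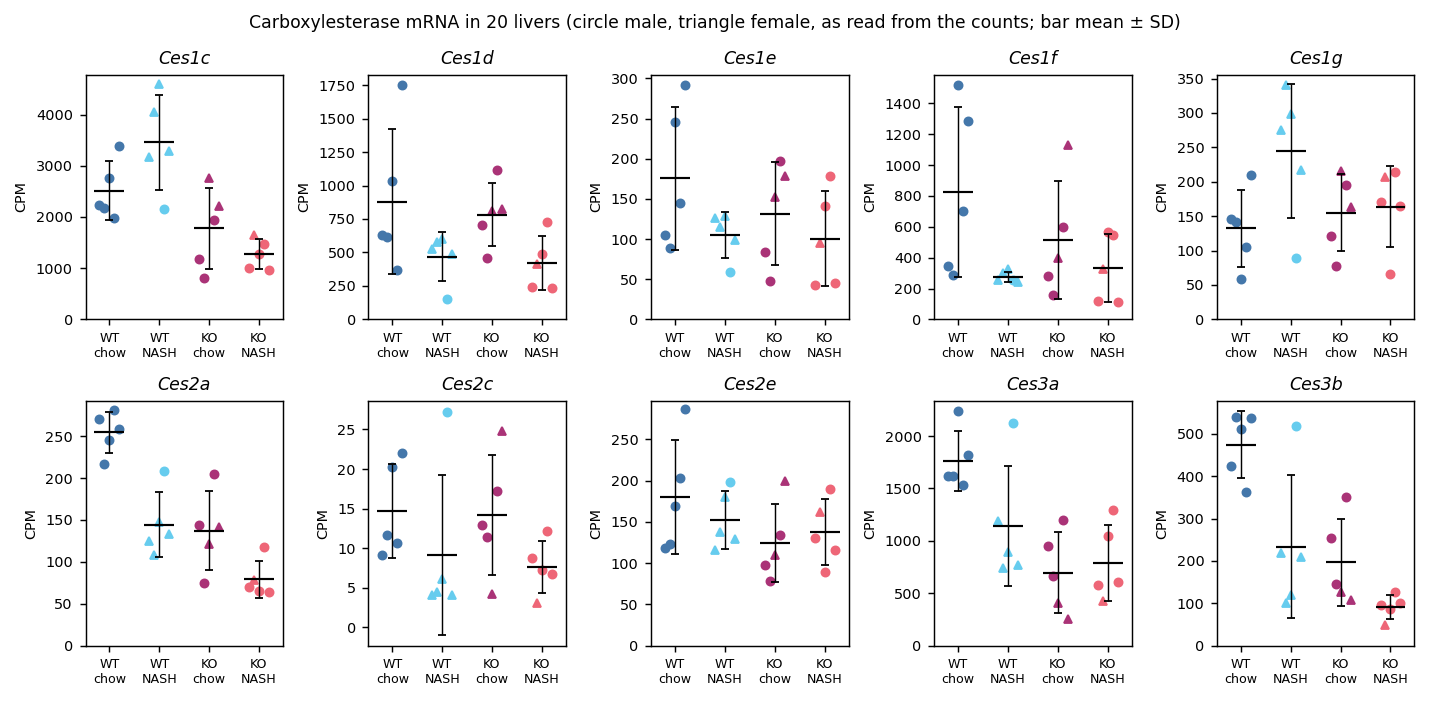
Level of each of the 10 members in CPM (y axis, linear) in the 20 livers by group (x axis), with males as circles and females as triangles as read from the counts, and the mean and SD as bars. Ces2a is the member whose WT chow livers (217 to 281 CPM) lie above every liver of the other groups, and the single male of WT NASH stands apart from its group for Ces3a, Ces3b and Ces2c.

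The first comparison, KO chow against WT chow, asked what loss of Pck1 does on the control diet. One of the 10 members passed the test and it fell: Ces2a (edgeR quasi-likelihood test, adjusted p under 0.05 over 14440 genes). Over all tested genes 5.53% passed and 2.49% fell. Log2 differences were below 0 for 9 of 10 members, and their median was -0.52 against 0.00 for all tested genes. Ces2a, Ces3a and Ces3b were lower in every KO library than in any WT library, 3 of 10 members, where 2.65% of all tested genes did so.

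Ces2a is a hydrolase of triacylglycerol and diacylglycerol. In WT chow it was at 270.5, 217, 245, 281 and 259 CPM in replicates 1 to 5. In KO chow it was at 143, 74.9, 121, 205 and 142 CPM. Every KO value was below every WT value, with KO replicate 4 nearest to them. The KO level was 54.0% of the WT level, -0.89 on the log2 scale (SE 0.24, adjusted p = 0.0381 by edgeR, 95% interval -1.37 to -0.41). Adding sex as a term gave -0.79 (adjusted p = 0.0798) and in males alone -0.84 (adjusted p = 0.13). The call was also lost in 8 of 20 fits that each left out 1 library (WT chow replicates 1, 3, 4 or 5, KO chow replicates 1, 2, 3 or 5), with adjusted p up to 0.104, while the log2 fold change stayed between -1.08 and -0.73.

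Ces3a had the lowest log2 fold change of the 10 members and missed the threshold. It was at 1616, 1620.3, 2237, 1529 and 1816 CPM in WT chow. KO chow livers had 953, 661, 404, 1204 and 258 CPM. The 2 female KO livers, replicates 3 and 5, were the lowest, and the 3 male KO livers still lay below every WT liver, all of which were male. Its log2 difference was -1.34 (SE 0.397, adjusted p = 0.0516 by edgeR). With sex as a term it was -0.99 (adjusted p = 0.0379), with the length slope -1.25 (adjusted p = 0.0415), and DESeq2 gave -1.33 (adjusted p = 0.0124). In males alone it was -0.90 (edgeR adjusted p = 0.127), in the 14 libraries of positive slope -1.25 (adjusted p = 0.0983) and with only the 2 groups fitted -1.31 (adjusted p = 0.138), and none of these passed. Leaving out WT NASH replicate 4, KO chow replicate 4 or KO NASH replicate 4 also brought it past the threshold, with log2 fold changes of -1.63 to -1.34 and adjusted p down to 0.0273.

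Ces3b, the near copy of Ces3a, also missed the threshold on chow. Its WT chow values were 424, 539, 512, 363 and 537 CPM. Its KO chow values were 255, 145, 126, 349.9 and 107 CPM, again with the females lowest and without overlap. The log2 fold change was -1.27 (SE 0.400, adjusted p = 0.068 by edgeR), and -0.86 with sex as a term (adjusted p = 0.0738). It passed without WT NASH replicate 4 or KO chow replicate 4 (adjusted p = 0.0231 and 0.0308). When the reads of Ces3a and Ces3b were summed, which removes the question of how reads were split within the pair, the log2 fold change was -1.33 (SE 0.391, adjusted p = 0.0505 by edgeR).

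The Ces1 members did not pass the edgeR test on chow. Ces1c, an esterase that in mice is secreted into plasma, was at 2226, 2176, 2768, 1982 and 3394 CPM in WT chow. In KO chow it was at 1174, 806, 2756, 1939 and 2219.7 CPM. The 3 male KO livers were the lowest and the 2 female KO livers lay within the WT range. Its log2 fold change was -0.50 (SE 0.30, adjusted p = 0.386 by edgeR), and -0.82 with sex and slope as terms (adjusted p = 0.024). The log2 differences of Ces1d, Ces1e, Ces1f, Ces1g, Ces2c and Ces2e lay between -0.69 (Ces1f) and 0.23 (Ces1g), with the groups overlapping for each.

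**Figure D3:**
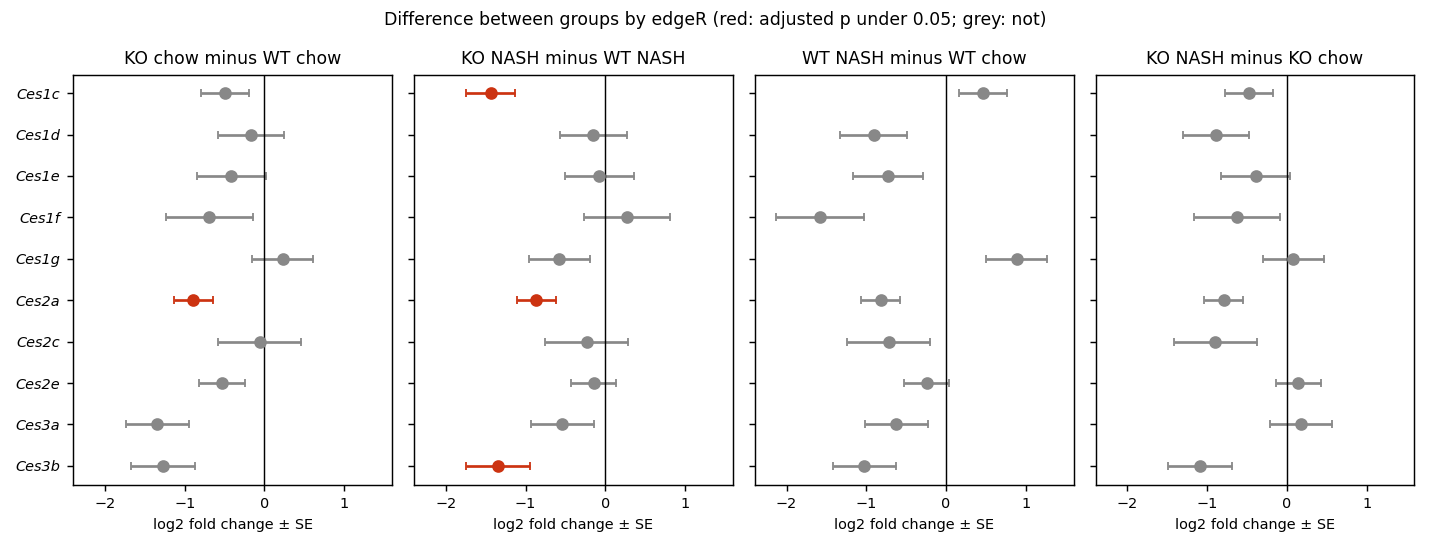
Log2 fold change with SE (x axis) of each member (y axis) in the 4 comparisons between groups, each of 5 against 5 livers, with members past an edgeR adjusted p of 0.05 in red. Ces2a is red in both genotype comparisons, at -0.89 and -0.87, and no member is red in either diet comparison.

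On the NASH diet, KO against WT, 3 of 10 members passed the test and all 3 fell: Ces1c, Ces2a and Ces3b. Over all tested genes 9.65% passed and 4.74% fell. Log2 differences were below 0 for 9 of 10 members, with a median of -0.39 against 0.00 for all genes. Only Ces1c, 1 of 10, had no overlap between the groups, where 6.44% of all tested genes were lower without overlap.

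Ces1c showed the largest difference of the 10. In WT NASH it was at 3173, 4059, 4592, 2159 and 3293 CPM. KO NASH livers had 997, 1655, 1283, 1477 and 972 CPM. The lowest WT value belonged to the only male of that group and the highest KO value to the only female of its group. The KO level was 37.0% of the WT level, -1.44 on the log2 scale (SE 0.305, adjusted p = 0.00663 by edgeR, 95% interval -2.03 to -0.84). The call held in all 20 fits that left out 1 library. Adding sex as a term gave -0.95 (edgeR adjusted p = 0.0647), with sex and slope -0.82 (adjusted p = 0.0525), in the 4 and 1 males alone -0.84 (adjusted p = 0.239) and in the 1 and 4 females alone -1.17 (adjusted p = 0.419). Within a sex 1 group has 1 mouse, whose spread is taken from the other groups. On this diet 4 of 5 WT livers were female and 4 of 5 KO livers male. Genotype and the sex of most livers thus changed together.

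Ces2a fell on this diet too. Its WT NASH values were 125, 108, 147, 208 and 133 CPM. Its KO NASH values were 70.1, 78.6, 65.1, 117 and 64.4 CPM. Only KO replicate 4 reached the WT range. The fold change on the log2 scale was -0.87 (SE 0.24, adjusted p = 0.0308 by edgeR), and -0.998 with sex as a term (adjusted p = 0.0369). The call was lost in 5 of 20 fits that left out 1 library (WT NASH replicate 4, KO NASH replicates 1, 2, 3 or 5), with log2 fold changes from -1.05 to -0.70 and adjusted p up to 0.0941.

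Ces3b was at 219, 100.9, 119, 519.9 and 209 CPM in WT NASH. It was at 96.4, 49.2, 87.7, 128 and 99.7 CPM in KO NASH. The male WT library, replicate 4, stood far above the 4 females, and the groups overlapped because the highest KO value, 128 CPM, exceeded the WT values of 100.9 and 119 CPM. The log2 fold change was -1.34 (SE 0.401, adjusted p = 0.0396 by edgeR). Without WT NASH replicate 4 it was -0.82 (edgeR adjusted p = 0.171), and with sex as a term -1.97 (adjusted p = 0.000753). In males alone, 4 against that 1 library, it was -2.31 (adjusted p = 0.00395). The call was also lost without WT NASH replicate 5 and without KO NASH replicate 1, 2, 3 or 5, with log2 fold changes of -1.38 to -1.18.

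Ces3a did not pass on this diet. WT NASH livers had 1189, 746, 895, 2121 and 774 CPM, with the male highest. KO NASH livers had 581, 423, 1043, 1297 and 603 CPM, with the female lowest. Its log2 difference was -0.54 (edgeR adjusted p = 0.417). With sex as a term it was -1.27 (adjusted p = 0.0189). The summed pair gave -0.65 (edgeR adjusted p = 0.307). The ratio of Ces3a to Ces3b counts ranged from 6.03 to 11.9 in KO NASH, from 3.71 to 7.51 in WT NASH, from 2.41 to 4.56 in KO chow and from 3.01 to 4.37 in WT chow. How reads were shared between the pair was not tested.

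The remaining members, Ces1d, Ces1e, Ces1f, Ces1g, Ces2c and Ces2e, had log2 differences from -0.58 (Ces1g) to 0.27 (Ces1f) between KO NASH and WT NASH, and the groups overlapped for each.

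Whether the genotype difference depended on diet was tested as an interaction, that is, by subtracting the genotype difference on chow from that on the other diet. None of the 10 members passed in edgeR, where 0.139% of all tested genes did. An unadjusted p under 0.05 was reached by 1 member, Ces1c, and DESeq2 and limma voom called 0. Among all 14440 tested genes 1191 reached it in edgeR, DESeq2 called 189 and limma voom 1949. Ces1c had the lowest value, -0.94 (SE 0.424, adjusted p = 0.561 by edgeR), and Ces1f the highest, 0.96. For Ces2a the interaction was 0.02 with a 95% interval of -0.65 to 0.70, so differences between the diets within that range are not excluded. The interval does not give the size that would be called, since -0.94 for Ces1c and 0.96 for Ces1f were not. The difference in Ces1c between the genotype groups was past the threshold on 1 diet and not on the other. It is not shown to differ between the diets.

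The effect of the diet itself was next compared within each genotype. These comparisons share libraries with the genotype comparisons, so their values are given side by side and not related to each other. Between WT NASH and WT chow no member passed in edgeR, where 5.93% of all tested genes did. An unadjusted p under 0.05 was reached by 5 members (Ces1d, Ces1f, Ces1g, Ces2a and Ces3b), DESeq2 called 2 and limma voom 6. Of all 14440 tested genes, 3191 had an unadjusted p under 0.05 in edgeR, DESeq2 called 1496 and limma voom 5866. The members' median log2 difference was -0.73 against 0.01 for all genes. One member, Ces2a, had no overlap, where 3.25% of all genes were lower without overlap.

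Ces2a fell short of the threshold by little in this comparison. Its WT NASH livers, at 108 to 208 CPM, all lay below its WT chow livers, at 217 to 281 CPM. The log2 fold change was -0.82 (SE 0.24, adjusted p = 0.0517 by edgeR). Adding sex as a term gave -0.63 (adjusted p = 0.351), and between the 1 male of WT NASH and the males of WT chow -0.31 (adjusted p = 0.807). Leaving out any of 6 libraries (WT chow replicate 2, WT NASH replicate 4, KO chow replicates 2, 4 or 5, KO NASH replicate 4) brought it past the threshold, with adjusted p down to 0.0151.

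Ces1f, a triacylglycerol hydrolase related to Ces1d, had the lowest log2 difference with the diet in WT. It was at 347, 289, 1516, 703 and 1282 CPM in WT chow. WT NASH livers had 256, 299, 324, 258 and 243 CPM. The 3 high WT chow livers were the 3 with a negative length slope, and the other 2 stood close to the WT NASH range. WT NASH replicate 4, also of negative slope, was at 258 CPM, within the range of its group. The fold change on the log2 scale was -1.58 (SE 0.551, adjusted p = 0.0941 by edgeR), -0.71 with the slope as a term (adjusted p = 0.309) and -0.17 in the 14 libraries of positive slope (adjusted p = 0.895). It passed without WT chow replicate 2 (adjusted p = 0.0491). Ces1d, the triacylglycerol hydrolase that feeds stored lipid into very-low-density lipoprotein, was at 633, 618, 1031, 369.9 and 1749 CPM in WT chow and at 528, 580.4, 599, 149 and 487 CPM in WT NASH. Its log2 fold change was -0.91 (SE 0.419, adjusted p = 0.207 by edgeR), and -0.18 in the 14 libraries of positive slope (adjusted p = 0.827).

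Ces1g and Ces1c were the 2 members with log2 differences above 0. Ces1g, a lipid esterase of the liver counted as a counterpart of human CES1, was at 146, 142, 58.8, 106 and 209.6 CPM in WT chow and at 276, 341, 298, 89.9 and 216 CPM in WT NASH. The 4 female WT NASH livers lay above every male WT chow liver, and the male WT NASH liver lay within the WT chow range. The log2 fold change was 0.88 (SE 0.383, adjusted p = 0.18 by edgeR), 0.17 with sex as a term (adjusted p = 0.906) and -0.58 in males alone (adjusted p = 0.733). That of Ces1c was 0.46 (SE 0.30, adjusted p = 0.371 by edgeR) and -0.19 with sex as a term (adjusted p = 0.829).

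Both Ces3 members were lower on average in WT NASH than in WT chow, and for both the sign turned in males alone. The log2 fold change of Ces3b was -1.02 (SE 0.398, adjusted p = 0.133 by edgeR), -1.56 without WT NASH replicate 4 (adjusted p = 0.00961), -0.19 with sex as a term (adjusted p = 0.824) and 0.11 in males alone (adjusted p = 0.93). That of Ces3a was -0.62 (edgeR adjusted p = 0.354), 0.32 with sex as a term (adjusted p = 0.704) and 0.24 in males alone (adjusted p = 0.85). All 5 WT chow livers were male and 4 of 5 WT NASH livers female, so in WT mice the diet and the sex of most livers changed together.

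Between KO NASH and KO chow no member passed in edgeR either, where 3.29% of all tested genes did. An unadjusted p under 0.05 was reached by 3 members (Ces1d, Ces2a and Ces3b), and DESeq2 and limma voom called 1 each. Over all 14440 tested genes 3199 reached it in edgeR, DESeq2 called 1303 and limma voom 1835. No member was free of overlap, where 4.31% of all genes were lower without overlap. Log2 fold changes were -0.89 for Ces1d (SE 0.419, adjusted p = 0.217 by edgeR), -0.79 for Ces2a (SE 0.24, adjusted p = 0.0765) and -1.09 for Ces3b (SE 0.399, adjusted p = 0.122). With sex as a term that of Ces3b was -1.30 (adjusted p = 0.0114). The call of Ces2a was reached without WT NASH replicate 4 or KO chow replicate 2, with adjusted p down to 0.037. Ces1d was at 706, 457, 807, 1119 and 826 CPM in KO chow and at 245, 417, 489, 727 and 237 CPM in KO NASH, so that only 2 KO NASH livers reached the lowest KO chow liver. Ces3a and Ces1c, at 0.18 and -0.48, were far from the threshold (edgeR adjusted p = 0.799 and 0.343).

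Ces1e, Ces2c and Ces2e passed in none of the 4 comparisons in edgeR, and their groups overlapped in each. limma voom called Ces1e and Ces2e lower in KO chow than in WT chow (-1.26 and -0.90 on the log2 scale, adjusted p = 0.034 and 0.00989), and Ces2c lower in WT NASH than in WT chow (-1.78, adjusted p = 0.00174). In these comparisons limma voom called 5836 and 5866 of all 14440 tested genes. Ces2c also passed in edgeR in WT NASH against WT chow without WT NASH replicate 4, and in KO NASH against WT NASH in males alone (-1.61, adjusted p = 0.0311). Ces1e, or egasyn, which holds beta-glucuronidase in the endoplasmic reticulum, ranged on chow from 88.8 to 292 CPM in WT and from 47.7 to 197 in KO livers, and on the NASH diet from 58.8 to 129 and from 43.0 to 178. Ces2e ranged on chow from 119 to 286 CPM in WT and from 78.7 to 200.1 in KO livers, and on the NASH diet from 116 to 198 and from 88.8 to 190.2. For Ces2c the ranges were 9.12 to 22.0 and 4.26 to 24.8 CPM on chow, and 4.07 to 27.2 and 3.08 to 12.1 CPM on the NASH diet.

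Sex was next fitted as a term within groups, male against female. Ces3a and Ces3b passed and were higher in males, 2 of 10 members, where 0.54% of all tested genes did so. The male minus female log2 difference was 1.30 for Ces3a (SE 0.246, adjusted p = 0.00635 by edgeR) and 1.27 for Ces3b (SE 0.236, adjusted p = 0.0054 by edgeR). In each of the 3 groups with both sexes, every male lay above every female for both genes: in KO chow, Ces3a males had 661 to 1204 CPM and females 258 and 404 CPM. Ces2c was next at 1.18 (SE 0.403, adjusted p = 0.298 by edgeR). Ces1c and Ces1g were lower in males by -0.77 and -0.78 on the log2 scale, which did not pass (edgeR adjusted p = 0.188 and 0.601). For Ces2a the difference was 0.26 (SE 0.216, adjusted p = 0.999). Sex was read from the counts and was not a factor of the study's labels.

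**Figure D4:**
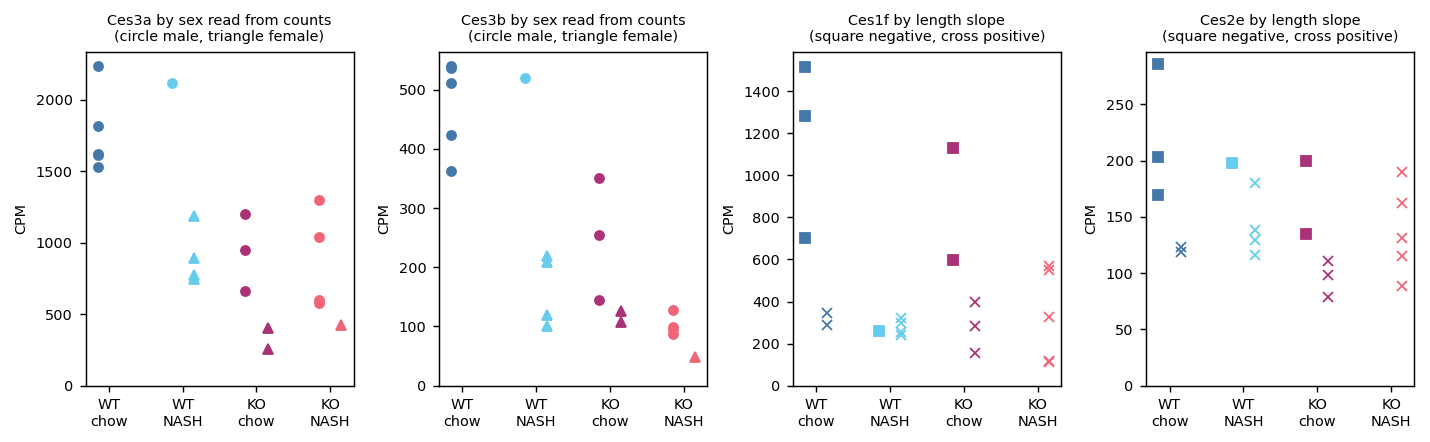
CPM (y axes, linear) of Ces3a and Ces3b by group and sex, and of Ces1f and Ces2e by group and sign of the length slope, each point 1 liver. Males lie above females for both Ces3 genes in the 3 groups with both sexes, and the 5 Ces1f livers at 599 CPM or above are the negative-slope livers of WT chow and KO chow. The negative-slope liver of WT NASH, at 258 CPM, lies within the range of its group, and the positive-slope KO NASH livers reach 568 CPM.

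A different set of members was called against the length slope. The slope was itself computed from the expression values of these libraries, so these calls are a description and no independent test. With the slope fitted within groups, Ces1e, Ces1f, Ces2a, Ces2c and Ces2e passed and were higher at a lower slope, 5 of 10 members, where 27.6% of all tested genes did so. In either direction 8176 of 14440 tested genes passed. Per SD of the slope the log2 level of Ces1f changed by -0.72 (edgeR adjusted p = 0.00176), of Ces2c by -0.58 (adjusted p = 0.00342) and of Ces2e by -0.37 (adjusted p = 0.000466). In WT chow, Ces2e was at 169.9 to 286 CPM in the 3 negative-slope livers and at 119 and 123 CPM in the other 2. Ces3a, Ces3b and Ces1c did not pass (edgeR adjusted p = 0.378, 0.191 and 0.367).

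Across the 20 livers some pairs of members varied together. This is a description over livers of both sexes, both diets and both genotypes, with those differences not removed. Pearson's r of log2 CPM was 0.92 for Ces1e and Ces1f, 0.82 for Ces1d and Ces1e, 0.81 for Ces3a and Ces3b and 0.87 for Ces2a and Ces3b, which are in different subfamilies. The lowest was -0.50, for Ces1g and Ces2c. Of 9529 genes with at least 5 CPM on average, the one most like each member was Enpep for Ces1c (r = 0.94), Otulin for Ces1d (0.91), Cyp2d26 for Ces1e (0.93), Creg1 for Ces1f (0.94) and Mme for Ces1g (0.86). It was Mtfr1 for Ces2a (0.90), Metap1 for Ces2c (0.89), Echdc3 for Ces2e (0.91), Serpina1c for Ces3a (0.93) and the predicted gene Gm31583 for Ces3b (0.91).

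Of the other 10 carboxylesterase symbols, 4 had enough counts to be tested (Ces1b, Ces2d-ps, Ces2g and Ces4a), and 1, Ces5a, had no count in any library. Only Ces2g passed in any comparison. WT livers had 25.2 ± 3.70 CPM (SD, n = 5) on chow and 45.3 ± 4.77 on the NASH diet, and KO livers 26.0 ± 6.82 and 25.2 ± 6.45. In WT it rose with the NASH diet by 0.85 on the log2 scale (SE 0.203; edgeR, adjusted p = 0.0177), and KO NASH was lower than WT NASH (-0.85, SE 0.203; edgeR, adjusted p = 0.0135). With sex as a term these were 0.61 (adjusted p = 0.269) and -0.66 (adjusted p = 0.0982), and the diet call was lost without WT chow replicate 3 (adjusted p = 0.0555).

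Among 14 other lipid hydrolases and their cofactors, calls went in both directions (edgeR). In KO chow 4 rose against WT chow, in KO NASH 7 rose and 2 fell against WT NASH, with the diet 1 rose and 5 fell in WT, and 3 fell in KO. Over all tested genes 3.03% rose in KO chow, 4.9% rose and 4.74% fell in KO NASH, 2.69% rose and 3.24% fell with the diet in WT, and 1.52% fell with it in KO. The median log2 difference of the 14 genes was 0.53, 0.86, -0.47 and -0.81 in these comparisons. Per comparison, the 4 called genes of largest log2 fold change were screened by the 20 fits that left out 1 library. The other calls were not screened. Values are given for screened genes whose call held in at least 18 of these fits, a choice made after the fits were seen. Calls outside the 4 include Lipe in KO NASH against WT NASH (1.81, adjusted p = 0.00161 by edgeR) and Pnpla8 with the diet in WT (-0.88, adjusted p = 0.0144 by edgeR). Nceh1, a cholesteryl ester hydrolase, was at 67.2 ± 17.8 CPM in WT chow and 160.2 ± 52.5 in KO chow (1.25 on the log2 scale, SE 0.253, adjusted p = 0.00672 by edgeR). Outside the 4, Nceh1 was also called in KO NASH against WT NASH (1.39, adjusted p = 0.00212 by edgeR) and with the diet in WT (-0.96, adjusted p = 0.0287 by edgeR). Lpl, lipoprotein lipase, was 36.3 ± 10.5 CPM in WT NASH and 218 ± 245 in KO NASH (2.59, SE 0.651, adjusted p = 0.0176 by edgeR). KO NASH livers had 519, 41.5, 52.8, 26.2 and 449 CPM, and WT NASH livers 26.0 to 48.1. The rise thus lay in KO NASH replicates 1 and 5, the closest pair of libraries. The call was lost without KO NASH replicate 1 or 5 and with sex as a term (1.71, adjusted p = 0.195 by edgeR). Pnpla3, a lipase of lipid droplets, was 3.15 ± 2.47 CPM in WT NASH and 0.267 ± 0.223 in KO NASH (-3.57, SE 0.738, adjusted p = 0.00537 by edgeR). In males alone it was 0.25 (adjusted p = 0.939).

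G0s2, an inhibitor of adipose triglyceride lipase, fell with the diet in WT from 429 ± 267 to 55.1 ± 20.1 CPM (-2.96, SE 0.652, adjusted p = 0.0107 by edgeR), and in the 14 libraries of positive slope by less and without a call (-1.30, adjusted p = 0.249). Lipa, the lysosomal acid lipase, and Pnpla8 fell with the diet in KO by -1.13 and -0.95 on the log2 scale (edgeR adjusted p = 0.0202 and 0.0191). Both calls were lost without KO NASH replicate 5, and that of Lipa also without replicate 1 (adjusted p up to 0.0611).

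Among 10 genes of lipoprotein assembly, which receives lipid freed by Ces1d, 2 passed in any comparison, Apoa4 and Mttp. Of the 10, 1 fell with the diet in WT, 1 rose in KO NASH against WT NASH and 1 fell with the diet in KO. Over all tested genes these shares were 3.24%, 4.9% and 1.52%. Apoa4, an apolipoprotein of triglyceride-rich particles, fell with the diet in WT from 2672 ± 937 to 667 ± 429.6 CPM (-2.003, SE 0.427, adjusted p = 0.00909 by edgeR), and with sex as a term the value was -2.06 (adjusted p = 0.0821). In KO NASH, at 2001 ± 1145 CPM, it was higher than in WT NASH (1.59, SE 0.421, adjusted p = 0.0234 by edgeR). That call was lost without WT NASH replicate 2, 3 or 4 or KO NASH replicate 3 (adjusted p up to 0.0844) and with sex as a term (1.63, adjusted p = 0.0699). Mttp, which loads lipid onto apolipoprotein B, fell with the diet in KO from 588 ± 59.0 to 299 ± 77.5 CPM (-0.98, SE 0.203, adjusted p = 0.017 by edgeR), a call lost without KO NASH replicate 5 (adjusted p = 0.0529). Of 10 nuclear receptors and other regulators of the family, Nr0b2, the repressor SHP, fell in KO chow from 28.7 ± 16.0 to 3.76 ± 3.38 CPM (-2.95, SE 0.666, adjusted p = 0.0139 by edgeR), a call that held in all 20 fits that left out 1 library and missed the threshold in the 14 libraries of positive slope (-2.60, adjusted p = 0.0549). Nr0b2 was the only 1 of these 10 called in KO chow, where 2.49% of all tested genes fell. In KO NASH against WT NASH 2 of the 10 fell, where 4.74% of all tested genes did. These were Nr0b2 (-2.06, adjusted p = 0.0448 by edgeR) and the glucocorticoid receptor Nr3c1 (-0.64, adjusted p = 0.027). Leaving out 1 library ended the call of Nr0b2 in 10 of 20 fits (adjusted p up to 0.133) and that of Nr3c1 in 6 (up to 0.0729). With sex as a term neither passed (edgeR adjusted p = 0.0878 and 0.128). Hnf4a, Nr1i2, Nr1i3, Nr1h3, Nr1h4, Ppara, Rxra and Nfe2l2 passed in none of the 4 comparisons (edgeR). The same held for the 2 tested receptors of the endoplasmic reticulum tail and for Gusb, the beta-glucuronidase that Ces1e retains.

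Markers of other cell types moved in places with the groups. Over all tested genes 5.53% passed in KO chow against WT chow and 9.65% in KO NASH against WT NASH. With the diet 5.93% of all tested genes passed in WT and 3.29% in KO. The 5 macrophage and Kupffer cell markers summed to 271 to 534 CPM in WT NASH and 211 to 297 in KO NASH, with 1 of 5 passing in that comparison. Adipocyte markers summed to 0.452 to 0.969 CPM in WT NASH and 3.59 to 54.5 in KO NASH, with 1 of 5 passing, Lep at 0 in every library and Plin1 at 0.128 CPM or less in KO NASH. The KO NASH sum was almost all Cfd, with 84 to 1135 counts there and 0 or 1 in WT NASH. Adipoq went the other way, with 0 to 6 counts in KO NASH and 2 to 9 in WT NASH. Pancreatic acinar markers summed to 11.7 to 107 CPM in WT NASH and 3.35 to 4.45 in KO NASH, with 1 of 6 passing and Amy2a5 and Try4 at 0 in every library. This sum was almost all Cela1, and no other acinar marker exceeded 2 counts in any library. Kidney markers stayed at or below 0.237 CPM in sum, and 1 intestinal and 1 endothelial marker passed in KO NASH against WT NASH. In each diet comparison 2 of 5 red blood cell markers passed, and these markers summed to at least 81.4 CPM in every WT chow and 89.5 CPM in every KO chow liver, and to at most 179 CPM in WT and 85.6 CPM in KO livers on the NASH diet. Both of these highest sums were in replicate 4 and were mostly Alas2, at 1018 counts in WT NASH and 1476 in KO NASH. The next marker, Hbb-bs, had 113 and 174 counts there. One macrophage marker passed in KO chow against WT chow. With the diet, 1 macrophage, 1 lymphocyte and 1 intestinal marker passed in WT, and 1 stellate cell and 1 cholangiocyte marker in KO. Their part in the carboxylesterase values was not tested.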

How the data were processed

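The authors deposited 1 table of whole-number counts per gene symbol for 20 liver libraries. Total RNA was extracted with Trizol and libraries needed an integrity number over 8, per the labels' protocols. HISAT2 2.0.4 and the GRCm38 build are named in the submitters' processing notes. For the counting program, the annotation and strand the sources used here give nothing. Column names were matched to the labels by genotype, diet and mouse number.

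The counts were fitted in R 4.3.3 with edgeR 4.0.16: filterByExpr with a minimum count of 10 kept 14440 genes (99.91% of counts), TMM scaled the libraries, and 1 quasi-likelihood model with a coefficient per group was fitted to all 20. Genes with a Benjamini-Hochberg adjusted p under 0.05 were called. The common biological coefficient of variation was 39%. Each SE was derived from the F statistic and the log2 fold change without shrinkage. The procedure was also run on simulated counts that held no sex or length-slope differences, so that run does not bear on those.

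The members, gene lists and motifs were chosen with earlier results of these data known. From each list at most the 4 called genes of largest log2 fold change per comparison were to be named. Lipe, Nceh1 and Pnpla8 are named beyond these in some comparisons. Likeness was Pearson's r of log2 CPM with a prior count of 2. A library with at least 100 counts over Ddx3y, Kdm5d, Eif2s3y and Uty was taken as male. The length slope was fitted over 9499 genes with lengths from GENCODE M21, which matched 93.33% of tested genes. It is the slope, on log2 length, of each gene's log2 CPM less its mean over the 20 libraries. KO NASH replicates 1 and 5 were the closest pair of libraries but differed by more than sampling noise, and both were kept.

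The alternatives were other scalings and low-count filters, DESeq2 1.42.0, limma 3.58.1 voom with quality weights, a block for the replicate number, fits of 2 groups at a time, sex, slope or both as terms, each sex alone, KO NASH replicates 1 and 5 summed, an added fold threshold, and leaving out each library. The fits of the 14 libraries of positive slope and of Ces3a and Ces3b summed were chosen after seeing the data. Reads carry no molecular identifiers in the table, so depth speaks for counting error only.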

Additional observations from a re-analysis of the deposited data

Results flagged for a closer look

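For 4 of 40 pairs of a member and a group, 1 library lay apart from the other 4 by more than 71.0% of the range of the group, the size at which chance marks about 1 in 20 groups. In 3 of the 4 it was WT NASH replicate 4, the single male library and the single negative-slope library of its group. Ces3b was at 519.9 CPM there and next highest at 219 CPM. Ces2c was at 27.2 CPM there and next highest at 6.05 CPM. Ces1d was at 149 CPM there, the lowest of its group, and next lowest at 487 CPM. The fourth was Ces2a in KO NASH replicate 4, at 117 CPM, with the next highest at 78.6 CPM.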

How the results depend on the processing

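The number of members called in KO chow against WT chow, 1 of 10, was 0 without a low-count filter, with only the 2 groups compared, in males alone and when a log2 difference of at least 1 was also required. It was 2 with a filter of 5 CPM and in the 14 positive-slope libraries, 3 with DESeq2, the replicate block or the slope term, 4 with sex and slope and 7 with limma voom. Calls over all 14440 tested genes rose as well, from 798 to 1389 with DESeq2 and 1652 with the slope term. They reached 1991 with sex and slope and 5836 with limma voom. With the sex term the number of members stayed at 1, but the gene was Ces3a and not Ces2a. In KO NASH against WT NASH the 3 became 1 without a filter or with KO NASH replicates 1 and 5 summed. Over all tested genes 1196 of 26350 and 764 of 14603 passed there, against 1393 of 14440 in the main fit. Females alone leave 1 KO NASH library, so no count is given for them. The number of members was 2 with only the 2 groups, the slope term or the 14 libraries, where Ces3b was lost. These settings called 2073 of 13656, 2388 of 14440 and 3102 of 15262 genes. The sex term, at 3 members, called 625 of 14440 genes, and sex and slope, also at 3, called 1501. In males alone Ces3b and Ces2c passed and Ces1c and Ces2a did not, and with the sex term, or sex and slope, Ces3a passed in place of Ces1c. For the diet in WT the 0 became 1 at 5 CPM, with the slope term or in the 14 libraries, 2 with DESeq2 or the replicate block and 6 with limma voom. Over all 14440 tested genes the 857 calls there became 1496 with DESeq2, 1775 with the slope term and 5866 with limma voom. In KO NASH against KO chow the 0 members became 1 with DESeq2, limma voom, the block, the sex term or both terms. These settings called 1303, 1835, 535, 574 and 1353 of all genes, against 475. Leaving out 1 library gave 0 to 3, 1 to 3, 0 to 3 and 0 to 1 called members in these comparisons, and 0 for the interaction. Without WT NASH replicate 4 there were 3, 1, 3 and 1.

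Signs turned for WT NASH against WT chow in Ces3a (0.32 with sex, 0.34 with sex and slope, 0.24 in males), Ces1c (-0.19, -0.10, -0.24), Ces3b (0.11 in males), Ces1g (-0.58 in males) and Pnpla3 (-1.90 in males). Pnpla3 turned in KO NASH against WT NASH (0.25 in males). Ces3a in KO NASH against KO chow turned in males (-0.10), with Ces3b summed in (-0.0174) and among the fits that left out 1 library (-0.0693 to 0.4653). The cause was not tested. Other scalings turned no sign of a named value.

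Whether the replicate numbers stand for a pairing or a batch was not settled. Deviations of same-numbered libraries correlated at -0.405 to 0.518 (median 0.0534), over 0.1 in 13 of 30 pairs. The median for different numbers was -0.0245. All 6 libraries of negative length slope bore a number from 3 to 5. The added block called 3, 3, 2 and 1 members. The 2-group fit has no interaction, and females alone give no value against WT chow, which holds no female. With 5 mice a group and a biological coefficient of variation of 39%, the smallest log2 difference called among the members was -0.87 (Ces2a), and one of -1.58 (Ces1f) was not called.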
